A study of Arabidopsis thaliana with 11 samples.

Results

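The xyloglucan endotransglucosylase/hydrolase (XTH) genes of Arabidopsis thaliana, XTH1 to XTH33, were followed through RNA sequencing of root tips of 3 mutants and the wild type. The members were the rows carrying the 33 locus identifiers of the family, and all 33 were present among the 28495 genes of each of the authors' 3 deposited tables. The groups were crn-3 (2 samples), clv2-gabi (3 samples), cle40-2 (3 samples) and wild-type Col-0 (3 samples), and the labels give every group the Col-0 background. CRN (CORYNE) is a membrane-bound pseudokinase and CLV2 (CLAVATA2) a receptor-like protein, and both act together in the perception of CLE peptides. CLE40 is one such peptide, known for restricting stem cell fate in the root tip. Seedlings of every group grew upright on agar at 21 °C in constant light. The labels do not describe the mutant alleles, the plants' age or the length of root cut.

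XTH enzymes cut xyloglucan, the hemicellulose that coats and tethers cellulose microfibrils in the primary wall, and join the cut end to another xyloglucan chain or, in a few members, to water. They act in walls that loosen and are rebuilt while cells elongate, and in roots they are known from the elongation zone and from emerging root hairs. The family is divided by sequence into group I (XTH1 to XTH11), group II (XTH12 to XTH26) and group III (XTH27 to XTH33), and group III holds the members known for hydrolase activity.

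Each deposited table gives the authors' mean of normalised reads per group, rounded to a whole number, the mutant mean over that of Col-0 (the fold, with 1 meaning no difference) and an adjusted p-value to 3 decimals. A gene is called here when that adjusted p is under 0.05, and it is then said to have risen or fallen in the mutant. An adjusted p printed as 0 is one that rounds to 0. The tables give group means and no value per sample, so no standard deviation stands beside a mean and groups cannot be checked for overlap. The 3 comparisons share the same 3 Col-0 samples.

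The coding stretch around the catalytic site is printed for 7 members, since XTH12, XTH17 and XTH30 are the members called in more than 1 mutant, XTH19 has the highest Col-0 mean, and XTH13, XTH14 and XTH18 are close relatives that were added after their values were seen. Each run of 48 bases is written 5′ to 3′ along the gene from the TAIR10.1 genome of RefSeq, and the capitals mark the 6 codons of the conserved motif that holds the catalytic nucleophile and the catalytic acid and base.
XTH12: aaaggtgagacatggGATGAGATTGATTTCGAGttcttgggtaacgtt
XTH13: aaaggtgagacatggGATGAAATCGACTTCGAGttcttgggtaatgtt
XTH14: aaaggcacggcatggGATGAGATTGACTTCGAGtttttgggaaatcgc
XTH17: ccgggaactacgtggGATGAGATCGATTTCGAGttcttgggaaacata
XTH18: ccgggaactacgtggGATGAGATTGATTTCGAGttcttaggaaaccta
XTH19: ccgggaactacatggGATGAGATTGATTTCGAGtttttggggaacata
XTH30: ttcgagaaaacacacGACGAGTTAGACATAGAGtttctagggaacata
These stretches lie at chr5:23301139-23301186 on the minus strand (XTH12), chr5:23303639-23303686 on the minus strand (XTH13), chr4:13130765-13130812 on the plus strand (XTH14), chr1:24257667-24257714 on the plus strand (XTH17), chr4:14826563-14826610 on the minus strand (XTH18), chr4:14829555-14829602 on the minus strand (XTH19) and chr1:11576245-11576292 on the plus strand (XTH30), each within a single coding exon. XTH12 and XTH13 differed at 4 of the 48 bases, and XTH12 and XTH14 at 11. XTH17 differed from XTH18 at 3 and from XTH19 at 4. The capital codons of XTH30 spell DELDIE, whereas those of the other 6 spell DEIDFE, the form coded by 22 of the 33 members. XTH9 codes NEFDFE there, with asparagine in place of the first aspartate, and no match to the pattern was found in XTH11.

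In Col-0 root tips the members' means ran between 0 and 4753. XTH19, which is expressed throughout the root and is induced by auxin, had the highest Col-0 mean, 4384, 4727 and 4753 per the authors' deposited tables for crn-3, clv2-gabi and cle40-2. The members at 1000 or more in every table were XTH4, XTH5, XTH8, XTH9, XTH16, XTH17, XTH18, XTH19 and XTH27. At the other end, 14 members had a Col-0 mean under 10 in every table, and XTH1, XTH2, XTH3, XTH6, XTH7, XTH25 and XTH26 were listed at 0 in Col-0 in all of them. XTH3 is known from flowers, while XTH26 is known from root hairs. XTH1, XTH2 and XTH3 were listed at 0 in the mutants as well, as rounded means at a depth that the tables do not give.

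Levels of different genes were compared per kilobase of spliced transcript, computed from the Col-0 means of the authors' deposited table for cle40-2. On this scale XTH19 had 3560 normalised reads per kilobase, XTH8 had 3150 and XTH4 had 2013. Together they held 53.94% of the family's summed level per kilobase in cle40-2 and 54.07% in Col-0, so XTH19, XTH8 and XTH4 make up more than the other 30 members combined. XTH18, XTH17, XTH16, XTH5, XTH9 and XTH27 followed at 1146, 1114, 1048, 967, 957 and 729 per kilobase. XTH21, XTH30, XTH15, XTH28 and XTH22 came next at 447, 411, 237, 169 and 70.4 per kilobase. Without values per sample it cannot be said which neighbours in this order, such as XTH18 and XTH17 or XTH5 and XTH9, differ beyond their spread. The leading members kept most of the family's level in the other comparisons: XTH19, XTH8 and XTH4 held 55.26% of it in crn-3, and 54.25% in libraries labelled clv2-gabi, per kilobase and from the authors' deposited tables.

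**Figure D1:**
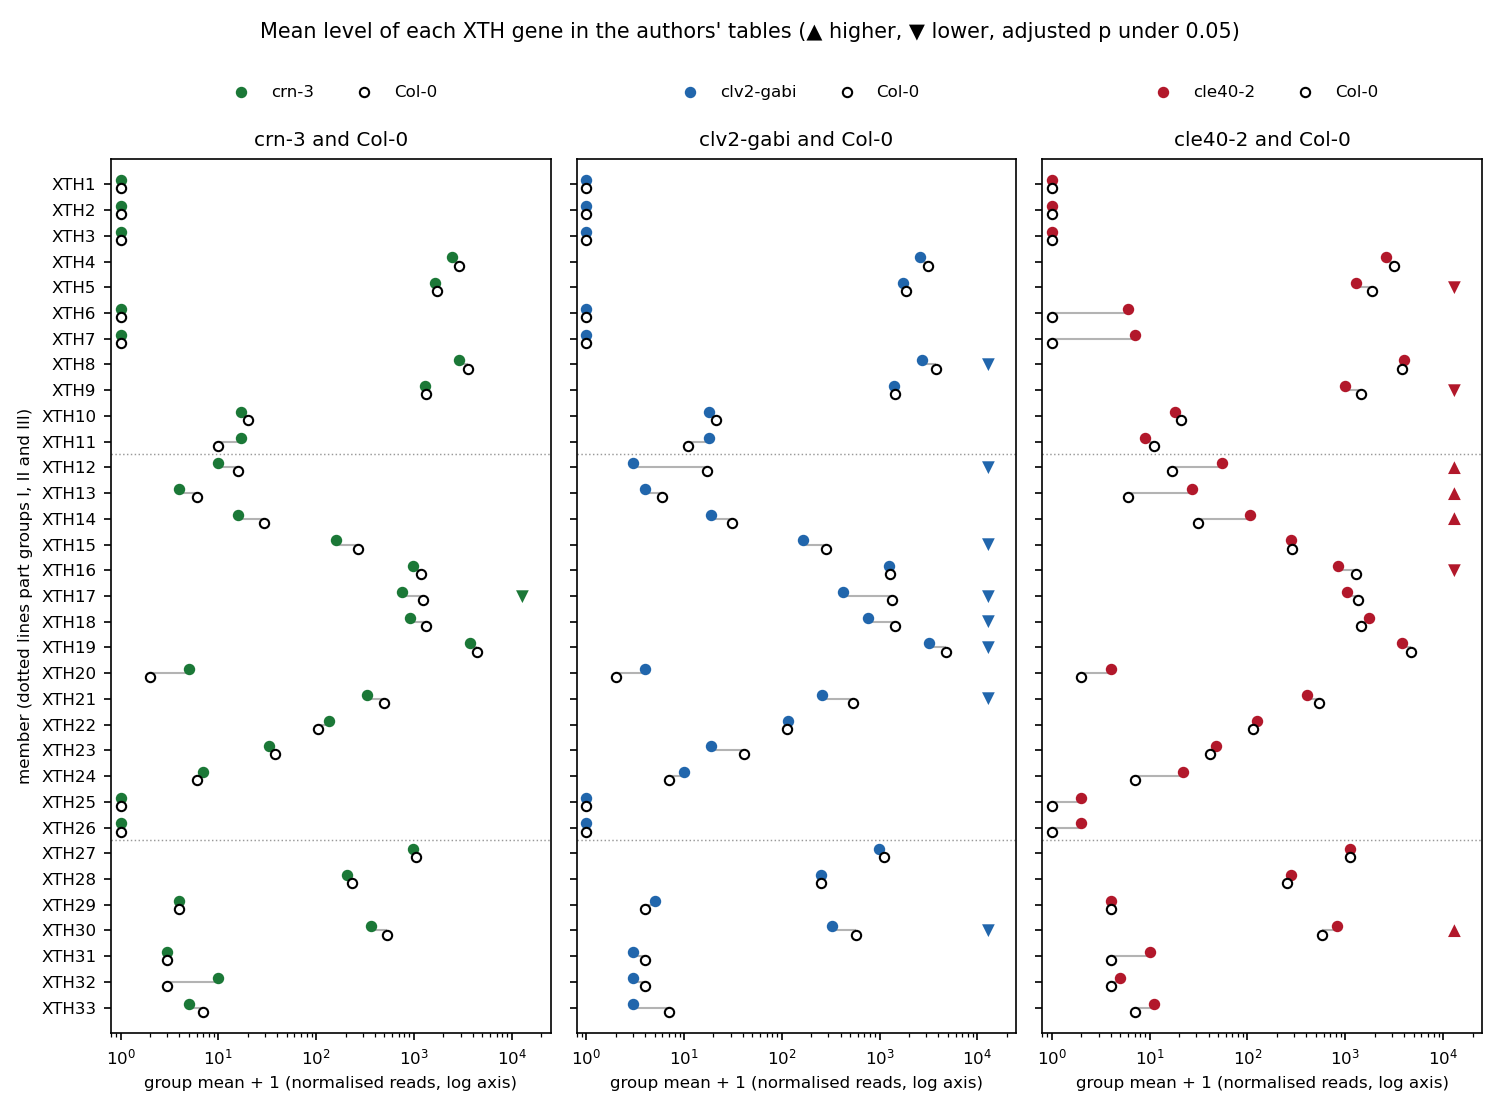
Group means of all 33 XTH genes in the authors' 3 deposited tables, 1 panel per mutant; the horizontal log axis is the mean of normalised reads plus 1, filled points are the mutant, open points Col-0, and triangles at the right mark members with an adjusted p under 0.05. Lower calls fill much of group II in the clv2-gabi panel, and the cle40-2 panel holds 4 triangles up and 3 down.

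Transcripts of the mutated genes did not separate the mutants by loss. CLV2 averaged 4248 in libraries labelled clv2-gabi and 198 in Col-0 (21.44-fold higher, adjusted p rounding to 0), CRN 111 in crn-3 and 91 in Col-0, and CLE40 3 in cle40-2 and 1 in Col-0, per the authors' deposited tables. The labels do not say what each allele does to its transcript, so every direction below rests on the labels. Over all genes with an average of both means of at least 10, the median fold computed from the authors' deposited tables was 1, 1.007 and 1 for crn-3, clv2-gabi and cle40-2.

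The libraries labelled clv2-gabi carried the most XTH calls, all of them lower. XTH8 (AT1G11545), XTH12 (AT5G57530), XTH15 (AT4G14130), XTH17 (AT1G65310), XTH18 (AT4G30280), XTH19 (AT4G30290), XTH21 (AT2G18800) and XTH30 (AT1G32170) fell, which is 8 of the 29 members with an adjusted p (27.6%), and none rose, per the authors' deposited table. Over all genes tested in that table, 1.59% were called lower and 0.3% higher. Of the 8, 6 are group II genes, and XTH8 and XTH30 are the others. Among the 14 members with an average of both means of at least 50, 7 were called (50%), beside 2.39% of all genes at that level. The sum of the 33 means was 16279 in libraries labelled clv2-gabi and 22006 in Col-0, a ratio of 0.740, per the authors' deposited table. Whether fewer cells of a type or less RNA per cell lowers such a mean cannot be told apart in bulk tissue.

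XTH17 had the most pronounced fall among well-expressed members. It encodes an enzyme with endotransglucosylase activity. Its mean was 424 in libraries labelled clv2-gabi and 1349 in Col-0, a fold of 0.31 with an adjusted p that rounds to 0, per the authors' deposited table. Its close relatives XTH18 and XTH19 fell less: XTH18, known from the elongating root epidermis, had 761 in libraries labelled clv2-gabi and 1439 in Col-0 (fold 0.53, adjusted p rounding to 0), per the authors' deposited table. XTH19 had 3227 in libraries labelled clv2-gabi and 4727 in Col-0 (fold 0.68, adjusted p = 0.005), per the authors' deposited table. The differences between these folds were not tested. XTH20, a further close relative known from the stele of the mature root, is barely detected, with means of 3 in libraries labelled clv2-gabi and 1 in Col-0, per the authors' deposited table.

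The coding sequences of XTH17 and XTH18 are 92.2% identical and those of XTH18 and XTH19 89.2%, computed from the TAIR10.1 annotation. Even so, 99.8% of the 50-base windows within the exons of XTH17 occur nowhere else on either strand of the genome, against 98.3% for XTH18 and 98.2% for XTH19. The sources used here do not say how the authors treated reads that match more than 1 gene. XTH12 and XTH13 share 89.7% of coding bases and all of their windows are unique, and XTH21 has the lowest share of unique windows of the family, 92.2%.

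XTH21, known for a part in primary root growth, fell to 258 in libraries labelled clv2-gabi, against 531 in Col-0 (fold 0.48, adjusted p rounding to 0), per the authors' deposited table. XTH15, known from shade-induced elongation of petioles and hypocotyls, fell to 164 in libraries labelled clv2-gabi, against 285 in Col-0 (fold 0.58, adjusted p = 0.001), per the authors' deposited table. Its nearest relative XTH16 had 1236 in libraries labelled clv2-gabi and 1267 in Col-0, a fold of 0.98 per the authors' deposited table. The pair shares 81.4% of coding bases, and only XTH15 passed the threshold, though the difference between them was not tested.

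The other calls lay outside group II or at low levels. XTH30, a group III gene, fell to 326 in libraries labelled clv2-gabi, against 573 in Col-0 (fold 0.57, adjusted p rounding to 0), per the authors' deposited table. XTH8, a group I gene second to XTH19 in Col-0 level per kilobase, fell to 2721 in libraries labelled clv2-gabi, against 3813 in Col-0 (fold 0.71, adjusted p = 0.024), per the authors' deposited table. XTH12 gave the smallest fold among the called members, 0.15, at means of only 2 in libraries labelled clv2-gabi and 16 in Col-0 (adjusted p = 0.003), per the authors' deposited table.

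Abundant members also stayed near Col-0 in the same libraries. XTH5, XTH9, XTH16 and XTH27 had folds of 0.93, 0.98, 0.98 and 0.87 in libraries labelled clv2-gabi, per the authors' deposited table. The less abundant XTH28 had 251 in libraries labelled clv2-gabi and 251 in Col-0 (fold 1.00), per the authors' deposited table. XTH4 (AT2G06850), known from stem elongation and wood formation, had 2581 in libraries labelled clv2-gabi and 3099 in Col-0 (fold 0.83, adjusted p = 0.851), per the authors' deposited table. The touch-induced gene XTH22 (AT5G57560) had 116 in libraries labelled clv2-gabi and 111 in Col-0, and its relative XTH23 (AT4G25810) had 18 in libraries labelled clv2-gabi and 40 in Col-0 (fold 0.46, adjusted p = 0.069), per the authors' deposited table. Of the 18 members with an average of at least 10, 15 had a ratio below 1 and the median was 0.771, computed from the authors' deposited table. That filter leaves out XTH12, whose average is 9 because its mean is low in libraries labelled clv2-gabi. With a filter on the Col-0 mean instead, 19 members passed and the median was 0.714.

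**Figure D2:**
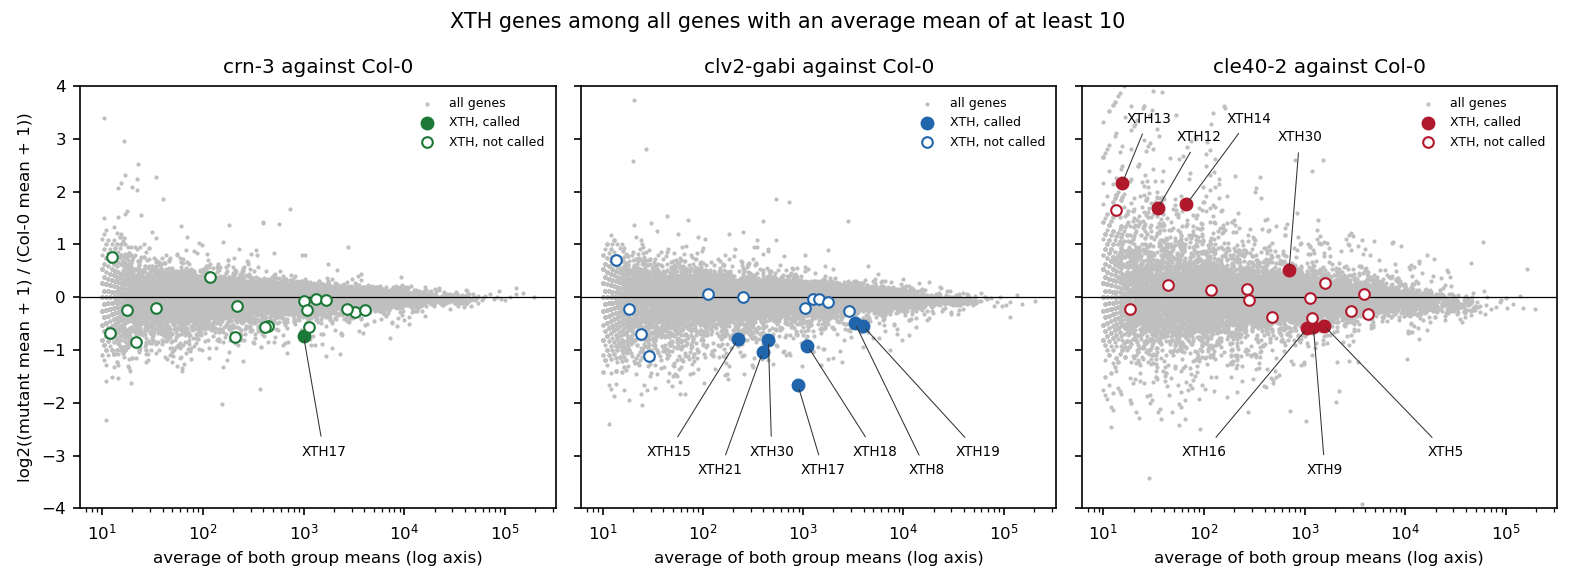
XTH genes (coloured) among all genes (grey) with an average of both means of at least 10, for each mutant; the horizontal log axis is that average and the vertical axis is the log2 ratio of mutant to Col-0 means with 1 added to each. Filled points have an adjusted p under 0.05; XTH12 is missing from the clv2-gabi panel because its average is 9, and 7, 2 and 45 genes of the crn-3, clv2-gabi and cle40-2 tables, none of them XTH genes, lie beyond the vertical axis.

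In crn-3 only XTH17 was called. Its mean was 751 in crn-3 and 1251 in Col-0, a fold of 0.60 with an adjusted p of 0.01, per the authors' deposited table. That is 1 of 28 members with an adjusted p (3.57% lower, none higher), beside 0.25% of all genes called lower and 0.189% called higher. At an average of at least 50, 1 of 14 members was called (7.14%), beside 0.495% of all genes. Among all genes, 100 were called, with 2 samples of crn-3.

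The members that fell in libraries labelled clv2-gabi had these values in crn-3, none of them called except XTH17. XTH15 had 157 in crn-3 and 264 in Col-0 (fold 0.59, adjusted p = 0.079), and XTH18 had 908 in crn-3 and 1335 in Col-0 (fold 0.68, adjusted p = 0.221), per the authors' deposited table. XTH21 had 332 in crn-3 and 493 in Col-0 (fold 0.68), and XTH30 had 365 in crn-3 and 532 in Col-0 (fold 0.69), per the authors' deposited table. XTH8, XTH19 and XTH12 had folds of 0.82, 0.85 and 0.63 in crn-3, per the authors' deposited table. Of the 19 members with an average of at least 10, 17 had a ratio below 1 in crn-3 and the median was 0.848, computed from the authors' deposited table. The central 95% of all genes averaging 200 to 1000 lay between folds of 0.8 and 1.2 in crn-3, and XTH15, XTH21 and XTH30 lay below that band. At averages of 1000 or more the band was 0.83 to 1.14, and XTH8, XTH17 and XTH18 lay below it. The corresponding bands were 0.74 to 1.23 and 0.79 to 1.16 in libraries labelled clv2-gabi, and 0.7 to 1.41 and 0.77 to 1.31 in cle40-2.

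**Figure D3:**
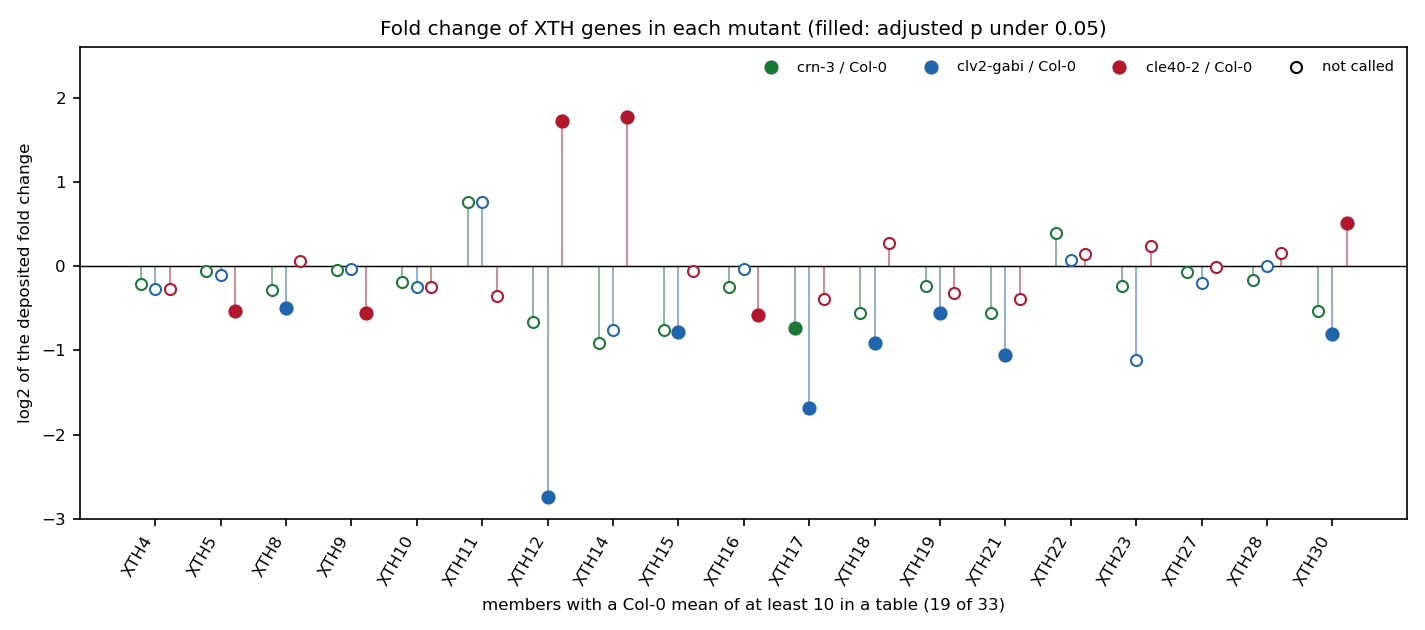
Log2 of the fold per the authors' deposited tables for the 19 XTH genes with a Col-0 mean of at least 10 in a table; green is crn-3, blue clv2-gabi and red cle40-2, each over Col-0, and filled points have an adjusted p under 0.05. XTH12 and XTH30 carry a blue filled point below 0 and a red one above it; XTH13, with a Col-0 mean of 5, is not drawn.

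The cle40-2 libraries showed calls in both directions. XTH12, XTH13 (AT5G57540), XTH14 (AT4G25820) and XTH30 rose and XTH5 (AT5G13870), XTH9 (AT4G03210) and XTH16 (AT3G23730) fell, 7 of 31 members with an adjusted p (12.9% higher and 9.68% lower), per the authors' deposited table. Over all genes tested in that table, 3.21% were called higher and 1.94% lower. At an average of at least 50, 5 of 15 members were called (33.3%), beside 5.38% of all genes. Among those 5, XTH14 passed the filter only through cle40-2, with a mean of 104 there and 30 in Col-0.

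The 3 members with the highest called folds in cle40-2 are close relatives in sequence and had low Col-0 means. XTH14, an enzyme known from the root hair initiation zone, had 104 in cle40-2 and 30 in Col-0 (fold 3.40, adjusted p rounding to 0), per the authors' deposited table. XTH12 had 54 in cle40-2 and 16 in Col-0 (fold 3.3, adjusted p = 0.001), per the authors' deposited table. XTH13 had 26 in cle40-2 and 5 in Col-0 (fold 4.82, adjusted p = 0.002), per the authors' deposited table. At means of 10 to 50 the central 95% of all genes in the cle40-2 table spanned folds of 0.4 to 12, and the folds of XTH12 and XTH13 lie inside that range. At averages of 50 to 200 it spanned 0.53 to 2.41, and XTH14 lies above it. However, XTH14 enters that class only through its mean of 104 in cle40-2. By its Col-0 mean of 30 it would stand with the genes at 10 to 50, and its fold lies inside their range. XTH13 in turn enters the class of 10 to 50 only through cle40-2. XTH12 and XTH13 stand 1097 bases apart on chromosome 5, followed at 686 bases by XTH25 and at 565 bases by XTH22. XTH25 had a mean of 1 in cle40-2 and 0 in Col-0, and XTH22 had 123 in cle40-2 and 112 in Col-0 (fold 1.10), per the authors' deposited table. XTH14 stands 363 bases from XTH23 on chromosome 4, and XTH23 had 47 in cle40-2 and 40 in Col-0 (fold 1.18), per the authors' deposited table. Both clusters thus hold called and uncalled members side by side.

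XTH30 rose by a smaller factor at a higher level, with 824 in cle40-2 and 576 in Col-0 (fold 1.43, adjusted p = 0.017), per the authors' deposited table. The members that fell in cle40-2 are well expressed and had similar folds. XTH5 had 1274 in cle40-2 and 1859 in Col-0 (fold 0.69, adjusted p = 0.013), per the authors' deposited table. XTH9, known from shoot apices and elongating flower stalks, had 985 in cle40-2 and 1457 in Col-0 (fold 0.68, adjusted p = 0.009), per the authors' deposited table. XTH16 had 849 in cle40-2 and 1274 in Col-0 (fold 0.67, adjusted p = 0.006), per the authors' deposited table. In libraries labelled clv2-gabi XTH5, XTH9 and XTH16 had folds of 0.93 to 0.98 and were not called, per the authors' deposited table.

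Members that fell in libraries labelled clv2-gabi and were not called in cle40-2 had the following values. XTH17 had 1030 in cle40-2 and 1357 in Col-0 (fold 0.76, adjusted p = 0.241), per the authors' deposited table. XTH18 had 1754 in cle40-2 and 1448 in Col-0 (fold 1.21, adjusted p = 0.389), per the authors' deposited table. XTH19, XTH21, XTH15 and XTH8 had folds of 0.80, 0.76, 0.96 and 1.04 in cle40-2, per the authors' deposited table. Among the 20 members with an average of at least 10, 10 ratios were above 1 and 10 below, with a median of 1.01 computed from the authors' deposited table. XTH13 and XTH24 passed that filter only through cle40-2, and with the filter on the Col-0 mean 19 members had a median of 0.962. XTH24 had 21 in cle40-2 and 6 in Col-0 (fold 3.55, adjusted p = 0.082), per the authors' deposited table. XTH6 and XTH7 were listed at 0 in Col-0 and had 5 and 6 in cle40-2 (adjusted p of 0.112 and 0.094), per the authors' deposited table.

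Over the 3 comparisons 13 members were called at least once and 20 never. XTH12, XTH17 and XTH30 were called in 2 mutants, and XTH12 and XTH30 are the members lower in libraries labelled clv2-gabi and higher in cle40-2. Among all 28495 genes, 1588 were called at least once and 149 in 2 or more mutants, in comparisons that share their Col-0 samples. Of these, 46 were lower in libraries labelled clv2-gabi and higher in cle40-2. Lower calls in crn-3 numbered 57, and 52 of those genes, XTH17 among them, were also lower in libraries labelled clv2-gabi. Among the uncalled members, XTH4 and XTH27 were well expressed: XTH27 (AT2G01850), known from developing tracheary elements of leaves, had folds of 0.95, 0.87 and 0.99 in crn-3, clv2-gabi and cle40-2, per the authors' deposited tables. XTH28 (AT1G14720) had folds of 0.89, 1.00 and 1.11 in the same order, per the authors' deposited tables. XTH10 and XTH11 had means of 8 to 20 in every group, and XTH20, XTH29, XTH31, XTH32 and XTH33 had means of at most 10, per the authors' deposited tables. XTH31, a member known for hydrolase activity, had 9 in cle40-2 and 3 in Col-0 (adjusted p = 0.446), and the membrane-localised XTH33 had 10 in cle40-2 and 6 in Col-0, per the authors' deposited table.

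By group of the family, group II held 6 of the 8 lower calls in libraries labelled clv2-gabi, among 14 members with an adjusted p (42.9%). Group I had 1 lower of 8 (12.5%) and group III 1 of 7 (14.3%), beside 1.59% of all genes. The means of group II summed to 6239 in libraries labelled clv2-gabi and 9807 in Col-0 (ratio 0.636), against ratios of 0.828 for group I and 0.799 for group III, computed from the authors' deposited table. In cle40-2 group II held 3 higher calls and 1 lower among 15 members with an adjusted p. Group I held 2 lower among 9 and group III 1 higher among 7. Over all genes tested there, 3.21% were called higher and 1.94% lower. Differences between the groups were not tested.

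The promoters of XTH12, XTH17, XTH30 and XTH19 are printed because the first 3 genes were called in 2 mutants, and XTH19 is the most abundant member. Each run holds the 250 bases before the annotated gene start, written 5′ to 3′ along the gene from TAIR10.1, and the capitals mark TATAAA on either strand, including overlapping matches.
XTH12: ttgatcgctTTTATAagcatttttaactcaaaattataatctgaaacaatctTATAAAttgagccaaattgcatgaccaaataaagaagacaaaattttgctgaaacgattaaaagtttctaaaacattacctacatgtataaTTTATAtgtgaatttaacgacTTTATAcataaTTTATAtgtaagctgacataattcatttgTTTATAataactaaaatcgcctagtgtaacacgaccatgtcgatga
XTH17: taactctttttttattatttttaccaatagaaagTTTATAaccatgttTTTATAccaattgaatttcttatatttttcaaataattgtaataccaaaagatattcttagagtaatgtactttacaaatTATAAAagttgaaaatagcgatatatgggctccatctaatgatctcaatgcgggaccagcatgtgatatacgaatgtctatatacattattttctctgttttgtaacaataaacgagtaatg
XTH30: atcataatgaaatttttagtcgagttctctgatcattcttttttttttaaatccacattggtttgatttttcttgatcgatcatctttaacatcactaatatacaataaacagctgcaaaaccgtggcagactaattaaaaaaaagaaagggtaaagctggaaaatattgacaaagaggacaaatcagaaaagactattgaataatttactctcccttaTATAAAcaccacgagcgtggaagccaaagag
XTH19: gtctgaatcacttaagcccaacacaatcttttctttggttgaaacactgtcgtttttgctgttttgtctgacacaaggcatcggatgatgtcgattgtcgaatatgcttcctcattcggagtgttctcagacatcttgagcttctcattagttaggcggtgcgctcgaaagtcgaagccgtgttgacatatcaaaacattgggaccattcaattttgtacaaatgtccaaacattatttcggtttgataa
They lie at chr5:23301690-23301939 on the minus strand (XTH12), chr1:24256804-24257053 on the plus strand (XTH17), chr1:11575070-11575319 on the plus strand (XTH30) and chr4:14830225-14830474 on the minus strand (XTH19). TATAAA, the core of the TATA box, occurred 6 times before XTH12, 3 times before XTH17, once before XTH30 and not before XTH19. In all, 18 of the 33 XTH promoters held it (54.5%), as did 47.3% of the 27443 promoters of protein-coding genes. The auxin response element TGTCTC was found before XTH3 and XTH6 (6.06% of the members, against 10.9% of all promoters), and the G-box CACGTG before no member (6.49% of all promoters). The root hair element, a longer motif with variable positions, was also found before no member (0.754% of all promoters). A match describes letters in this window and is not evidence of a bound site.

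XTH17 lies on chromosome 1, and its 5′ end is 29.7 kb upstream of that of CLV2. Within 50 kb of CLV2 there are 24 genes, of which 16 had an adjusted p in the clv2-gabi comparison. CLV2 itself and AT1G65370 rose and XTH17 fell, per the authors' deposited table. AT1G65370, whose 5′ end lies 0.4 kb upstream of that of CLV2, averaged 1123 in libraries labelled clv2-gabi and 321 in Col-0 (fold 3.5, adjusted p rounding to 0), per the authors' deposited table. On one side of XTH17, CBSX6 had 667 in libraries labelled clv2-gabi and 873 in Col-0 (fold 0.76, adjusted p = 0.243) and was not called, per the authors' deposited table. On the other side AGL38 was listed at 0 in both with no adjusted p, so it could not be called. The next gene there, AT1G65295, had 266 in libraries labelled clv2-gabi and 365 in Col-0 (fold 0.73, adjusted p = 0.195), per the authors' deposited table. PP2-A5, the gene downstream of CLV2, was listed at 0 in both as well. Across the 13 genes of the window with an average of at least 50 the median fold was 1, and 4 were below 1, per the authors' deposited table for clv2-gabi. Those 4 are consecutive among the 13 along the chromosome, with AT1G65295, XTH17 and CBSX6 among them. The same 4 had folds of 0.60 to 0.93 in crn-3 and of 0.76 to 1.06 in cle40-2, per the authors' deposited tables. At an average of at least 50, 7 of 13 genes of the window were below 1 in crn-3 and 8 of 14 in cle40-2. XTH17 was also the called gene of this window in crn-3, with the fold of 0.60 given above. In cle40-2 the called gene was UBQ13, a polyubiquitin gene with near-identical copies, at 94 in cle40-2 and 26 in Col-0 (fold 3.58, adjusted p rounding to 0), per the authors' deposited table. Whether linkage to the mutated locus plays a part in the XTH17 value was not tested.

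**Figure D4:**
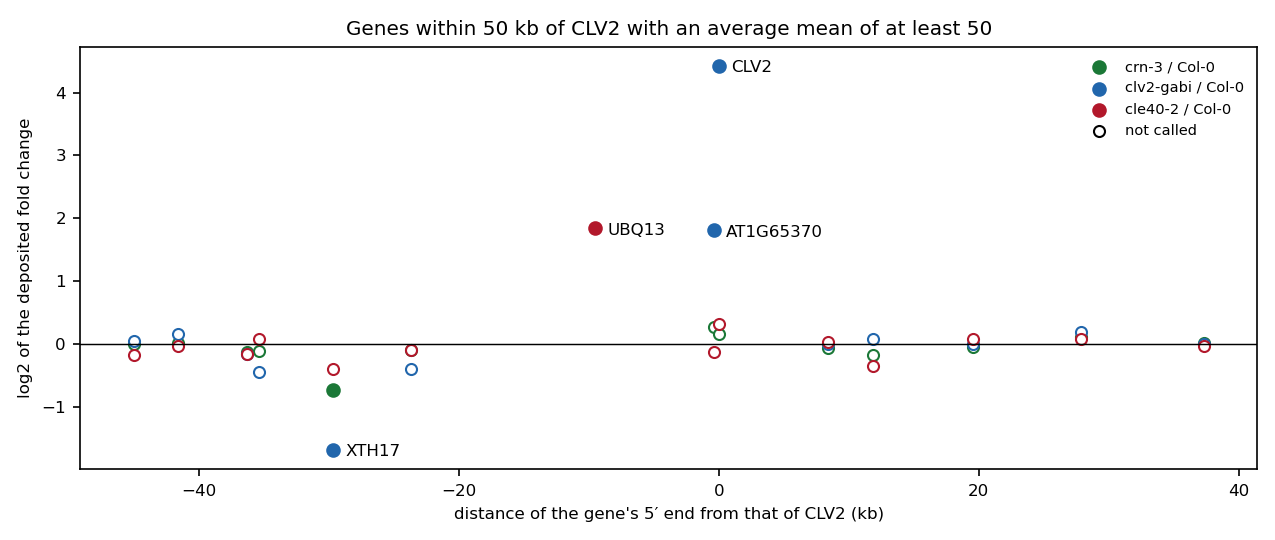
Log2 of the fold per the authors' deposited tables for genes within 50 kb of CLV2 with an average of both means of at least 50, placed by the distance in kilobases of their 5′ end from that of CLV2. Filled points have an adjusted p under 0.05 (green crn-3, blue clv2-gabi, red cle40-2); XTH17, 29.7 kb upstream, is lowest in clv2-gabi, and the nearest drawn gene on either side is an open point.

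The genes that make and trim xyloglucan were examined as a list of 22. None was called in crn-3 (median ratio 0.982), 2 fell in libraries labelled clv2-gabi (median 0.916) and 2 fell in cle40-2 (median 0.966), with none higher, from the authors' deposited tables. The 2 genes are 9.09% of the list in each case, beside 1.59% of all genes called lower in clv2-gabi and 1.94% in cle40-2. At an average of at least 50 the share called was 10% in each, beside 2.39% and 5.38% of all genes. XUT1, a galacturonosyltransferase that modifies the xyloglucan of root hairs, had 39 in libraries labelled clv2-gabi and 109 in Col-0 (fold 0.36, adjusted p rounding to 0), per the authors' deposited table. AXY4, needed for O-acetylation of xyloglucan, had 292 in libraries labelled clv2-gabi and 440 in Col-0 (fold 0.66, adjusted p = 0.014), per the authors' deposited table. In cle40-2 XUT1 and AXY4 had folds of 1.4 and 1.36 with adjusted p of 0.273 and 0.087, per the authors' deposited table. The genes that fell in cle40-2 were XLT2 and BGAL10. XLT2, a galactosyltransferase, had 341 in cle40-2 and 494 in Col-0 (fold 0.69, adjusted p = 0.045), per the authors' deposited table. BGAL10, a β-galactosidase that trims xyloglucan, had 1254 in cle40-2 and 2056 in Col-0 (fold 0.61, adjusted p rounding to 0), per the authors' deposited table. The list's most abundant genes were XYL1, an α-xylosidase, and AT5G20950, and XYL1 had folds of 1.02, 1.10 and 0.80 in crn-3, clv2-gabi and cle40-2, none of them called, per the authors' deposited tables. AT5G20950 was called in none either. The glucan synthase genes CSLC4, CSLC5, CSLC6, CSLC8 and CSLC12 and the xylosyltransferase genes XXT1 to XXT5 were called in none of the comparisons.

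**Figure D5:**
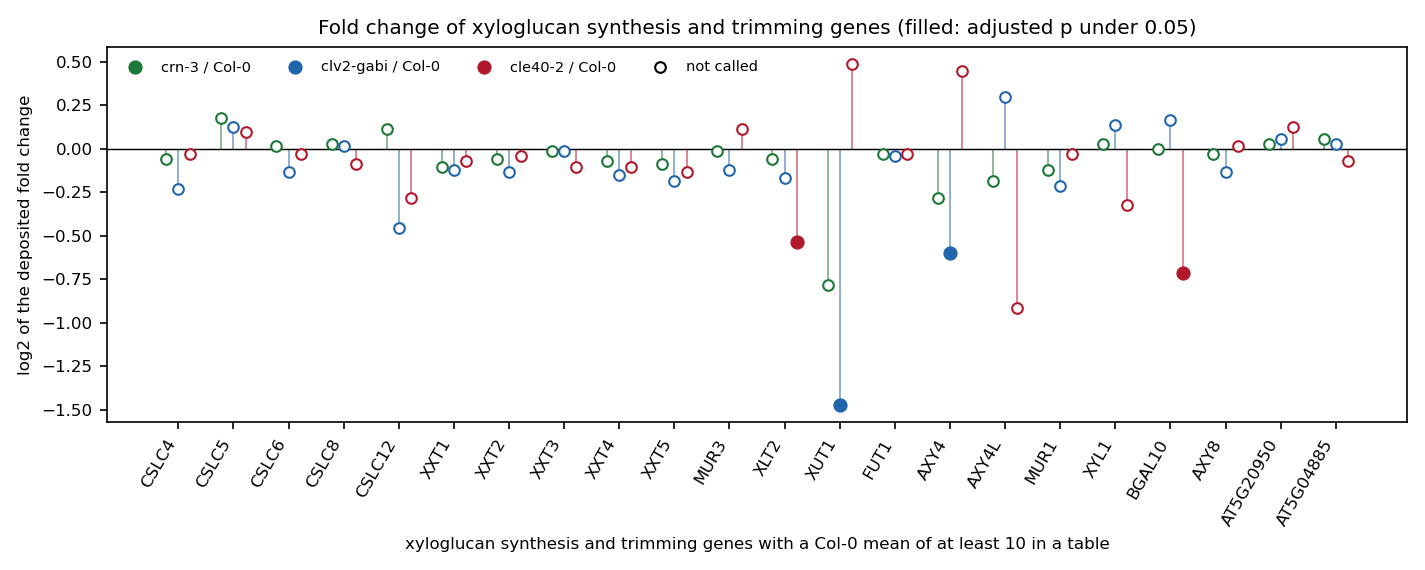
Log2 of the fold per the authors' deposited tables for 22 xyloglucan synthesis and trimming genes; green is crn-3, blue clv2-gabi and red cle40-2, each over Col-0, and filled points have an adjusted p under 0.05. The filled points are XUT1 and AXY4 in clv2-gabi and XLT2 and BGAL10 in cle40-2, all below 0.

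Markers of cell types were read beside the XTH values. Over all genes tested, 0.25% were called lower in crn-3, 1.59% lower in libraries labelled clv2-gabi and 3.21% higher in cle40-2. Of 9 root hair and epidermis genes, 6 fell in libraries labelled clv2-gabi (median ratio 0.450; summed means 1913 there and 3020 in Col-0), 2 fell in crn-3 (0.671; 2053 in crn-3 and 2801 in Col-0) and 5 rose in cle40-2 (1.83; 3756 in cle40-2 and 3036 in Col-0), from the authors' deposited tables. RHD2, the NADPH oxidase of growing hairs, had folds of 0.78, 0.64 and 1.45 in crn-3, clv2-gabi and cle40-2, and it was called in the last 2, per the authors' deposited tables. COBL9, a hair protein of the COBRA family, had folds of 0.56, 0.41 and 1.03 and was called in the first 2, per the authors' deposited tables. RHD6, which starts hair formation, was called in none. Of 8 endodermis genes, none was called in crn-3 or in libraries labelled clv2-gabi. All 8 nevertheless had ratios below 1 in both, with medians of 0.760 in crn-3 and 0.677 in libraries labelled clv2-gabi. In cle40-2 7 of them rose (median 2.57; summed means 1243 in cle40-2 and 567 in Col-0), from the authors' deposited tables. ESB1, MYB36 and CASP1, which build or direct the Casparian strip, had folds of 1.83, 1.66 and 3.27 in cle40-2, per the authors' deposited table.

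The 4 root cap genes and the 5 genes of dividing cells were called in none of the mutants, and their median ratios lay between 0.981 and 1.17. SMB, a root cap regulator, had folds of 1.2, 1.2 and 1.01, and KNOLLE, which acts in cell plate formation, had 0.98, 1.08 and 0.97 in crn-3, clv2-gabi and cle40-2, per the authors' deposited tables. Every root hair, endodermis, root cap and dividing cell marker had a Col-0 mean above 0 in these libraries labelled root tip. Of 8 green tissue genes, 7 rose in cle40-2 (summed means 1800 in cle40-2 and 489 in Col-0), from the authors' deposited tables. The median ratio of the 8 was 20.9 there, but some passed the average filter only through cle40-2. With the filter on a Col-0 mean of at least 10, 4 genes had a median of 1.85. In libraries labelled clv2-gabi 1 rose (674 there and 487 in Col-0), beside 0.3% of all genes called higher. None was called in crn-3 (493 in crn-3 and 452 in Col-0). LHCA4, a light-harvesting protein with the highest Col-0 mean of that list, had 353 in cle40-2 and 222 in Col-0 (fold 1.59, adjusted p = 0.013), the smallest fold among the 7 calls, per the authors' deposited table. LHB1B1, also a light-harvesting protein and named after its value was seen, had 578 in cle40-2 and 1 in Col-0 per the authors' deposited table. RBCS1A and LHCA2 of the same list were listed at 0 in Col-0 in every table. Beside the 4 XTH genes that rose and the 3 that fell in cle40-2, the called green tissue and endodermis markers all rose, while LHCB6 and CASP4 of those lists were not called. Beside XTH12 and XTH30, lower in libraries labelled clv2-gabi and higher in cle40-2, the called root hair markers were all lower in libraries labelled clv2-gabi (6 of 9) and all higher in cle40-2 (5 of 9). The part of these cell types in the XTH values was not tested.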

How the data were processed

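RNA of root tips was measured in 11 samples of 4 groups. Per the labels' protocols, seedlings grew on agar (sucrose 10 g/l, MES 0.5 g/l, MS salts 2.2 g/l), and total RNA from a Qiagen kit was treated with DNase in 2 steps and made into libraries by standard Illumina methods. The submitters' processing notes name CASAVA 1.8.2, DESeq without a version and TAIR10. For aligner, counter, strand setting and annotation, nothing is given in the sources used here.

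The deposited group means are scores: the authors' rounded means of normalised reads, which cannot enter a count model. The deposited fold is the authors' ratio of mutant to Col-0 mean, to 2 decimals. The p-value deposited by the authors is adjusted, to 3 decimals, by a method that the sources used here do not give. The labels do not say whether samples came from separate cultures, so these p-values measure the spread between samples, which may be technical. Depth per sample is unknown; the means summed to 26459270 in crn-3 and 26708310 in Col-0, 28025463 in clv2-gabi and 28800590 in Col-0, and 28212541 in cle40-2 and 28949816 in Col-0. Col-0 means were 1.078 and 1.084 times higher in the clv2-gabi and cle40-2 tables than in the crn-3 table, so mutants were set against Col-0 within a table only.

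Calls used the deposited adjusted p under 0.05 (22793, 22987 and 23602 genes with a value). Medians used log2 ratios with 1 added to both means, over genes whose 2 means averaged at least 10. Python 3.11.15, pandas 2.3.3, Biopython 1.88 and matplotlib 3.10.9 were used; the scripts were tested on simulated data. Coding sequences (1 transcript per gene) were aligned pairwise, and promoters, lengths and neighbours were read from TAIR10.1; 28008 of the 28495 identifiers and all 33 members matched it.

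The members and lists were chosen with earlier results of these data known. The text names all 33 members; pathway genes called in any mutant and the 2 with the highest Col-0 mean; CLV2, XTH17, the genes beside each and any called gene within 50 kb of CLV2; and up to 3 markers per list by Col-0 mean. CASP4, LHB1B1, RBCS1A, LHCA2 and AT1G65295 are named outside these rules. Protein sequences were not used here.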

Additional observations from a re-analysis of the deposited data

How the results depend on the processing

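Calls in crn-3 numbered 0 at an adjusted p under 0.01 and 2, both lower, at 0.1, against 1 at 0.05; XTH15 is the second. In libraries labelled clv2-gabi the count stayed within 6 to 9. In cle40-2 requiring a fold of at least 1.5 in either direction left 3 calls, all higher, and other settings gave 5 to 9. XTH16, lower with a fold printed as 0.67, lies so near that limit that rounding to 2 decimals may decide its removal. Without a filter on low means, over all 33 members, the median log2 ratio was -0.080 in crn-3 (-0.238 with it), -0.197 in clv2-gabi (-0.375) and 0.134 in cle40-2 (0.019), since members at or near 0 enter with ratios near 1 or with 1 added to very low means. With a Col-0 mean of at least 10, an alternative chosen after seeing the data, the median was -0.487 in clv2-gabi and -0.056 in cle40-2, where the sign differs; an average of at least 50 also gave -0.056 there. With 10 added to both means in place of 1, the log2 ratio of XTH12 in clv2-gabi was -1.115 (-2.503 with 1) and that of XTH13 in cle40-2 was 1.263 (2.170 with 1), both at low means; no other called member moved by over 1.5 times. Rescaling moved the median of all genes by at most 0.0394 on the log2 scale. No paired analysis was possible because the deposited tables hold group means only; leaving out single replicates was not run for the same reason. TATAAA and coding identity were also chosen after seeing the data. The unknown depth limits the members listed at or near 0.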
